A study of Homo sapiens with 9 samples.

Results

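The 9 genes described here encode inhibitors of immune and secreted proteases, namely Serpina3g, Serpina3f, Serpina3n, Serpina3i, Serpinb9, Serpinb6a, Serpinb6b, Serpinb1a and Slpi, out of 17369 genes in the expression table. They were found by symbol. Serpina3g was chosen by its measured values, for its rise in tumors of adapted cells. Its values against the original tumors are therefore given as a description with no test. The other members were added as further genes of the same function. These members and the gene lists below were chosen with earlier results of these data known, so their tests are no independent support. RNA was measured in 9 whole tumors, 3 per group. TBP3743 cells come from an anaplastic thyroid cancer of B6129SF1 mice that carried Braf V600E and lacked Trp53 in the thyroid, and all tumors carried both changes. Groups carry the short names of the labels. SFOG tumors grew from original TBP3743 cells in B6129SF1 hosts, SFSC tumors from adapted cells in B6129SF1 hosts, and B6SC tumors from adapted cells in C57BL/6 hosts. Adapted cells are TBP3743 cells recovered after passage round 3 of subcutaneous tumors in C57BL/6 mice and are 1 derived line. All hosts were female and 6 weeks old, cells were placed in the thyroid, and tumors were taken at day 14. The B6129SF1 and C57BL/6 hosts came from different vendors, so host strain and vendor cannot be told apart. B6SC and SFOG differ in both cells and host, so these cannot be told apart in that comparison. With 1 adapted line, the tests measure spread between tumors and not between separate adaptations.

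Serpins are single-use inhibitors. The target protease cleaves an exposed loop of the serpin and is trapped in a covalent complex, and the sequence of that loop decides which proteases are caught. The mouse has an expanded cluster of Serpina3 genes in place of the single human SERPINA3 (alpha-1-antichymotrypsin), and an expanded set of intracellular Serpinb genes. Serpinb9 inhibits granzyme B, the death-inducing protease that cytotoxic lymphocytes deliver into target cells, and protects both the lymphocytes and some tumor cells from it. Slpi belongs to a different family, the whey acidic protein (WAP) domain inhibitors, and blocks neutrophil elastase and cathepsin G.

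Levels are FPKM, fragments scaled to transcript length and library, which take transcript length into account and so can be set side by side between genes. Serpinb6a, a broadly expressed intracellular inhibitor of trypsin-like proteases, was the most abundant member in every tumor, with 175 to 360 FPKM. Every other member stayed at or below 68.5 FPKM. Serpinb6a supplied 91.5% to 93.8% of the summed FPKM of all 9 members in the SFOG tumors, 61.0% to 82.7% in the SFSC tumors and 65.8% to 72.0% in the B6SC tumors. The sum includes Serpina3g, which was chosen for its rise in adapted tumors. The lower share there is therefore partly set by that choice. The sum itself was 325 ± 64.4 FPKM (SD, n = 3) in SFOG, 290 ± 69.7 in SFSC and 312 ± 37.1 in B6SC, and the groups overlapped in this sum. In bulk tumors, fewer cells of a type and less RNA per cell cannot be told apart.

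**Figure D1:**
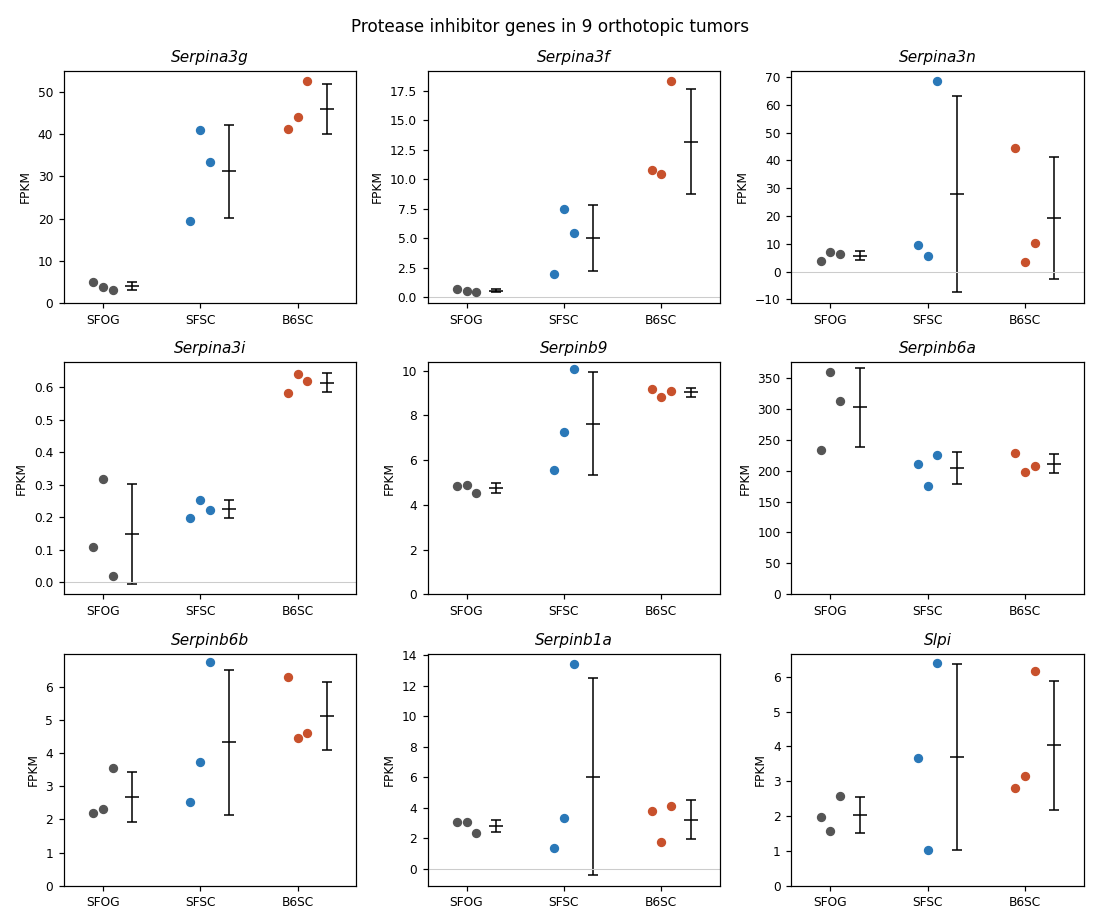
FPKM of the 9 protease inhibitor genes (1 panel each, linear axes) in each tumor; points are tumors of the SFOG, SFSC and B6SC groups, and the bar beside them is the mean with SD (n = 3). Serpina3g and Serpina3f are higher in all adapted tumors than in all SFOG tumors, Serpinb6a is lower, and Serpina3n is high in 1 SFSC and 1 B6SC tumor.

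Some properties of the libraries bear on these genes. A list of 11 skeletal muscle genes made up 6.11% of the summed FPKM of SFSC replicate 3 and 1.18% of that of B6SC replicate 1, while the other tumors had at most 0.141%, and results that rest on this pair are given with and without it. Summed T cell markers (6 genes) ranged from 3.61 to 5.23 FPKM in SFOG, 5.90 to 27.3 in SFSC and 18.0 to 26.7 in B6SC. Summed general leukocyte markers (5 genes) ranged from 277 to 307, 405 to 604 and 335 to 660 FPKM, and summed NK and cytotoxic cell markers (6 genes) from 2.96 to 9.02, 8.63 to 20.8 and 14.8 to 23.7 FPKM. None of these markers was at 0 in all tumors. Of 7 thyroid follicular markers, 3 stayed under 1 FPKM in every tumor, while Nkx2-1, a thyroid transcription factor, had means of 33.1, 34.7 and 35.2 FPKM in the same order of groups. Epithelial markers (6 genes) summed to 577 to 970, 265 to 547 and 370 to 423 FPKM. Relative depth, read approximately from the steps between low FPKM values, lay between 0.966 and 1.35 times that of SFOG replicate 1. Absolute depth is unknown, because the values are not counts.

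Serpina3g encodes an intracellular inhibitor of cysteine cathepsins that is induced in activated lymphocytes and macrophages. It stood at 4.93, 3.83 and 3.08 FPKM in the SFOG tumors, at 19.3, 41.1 and 33.4 in the SFSC tumors, and at 41.3, 44.2 and 52.6 in the B6SC tumors. All 6 adapted tumors were above all 3 SFOG tumors, and SFSC replicate 1 was the lowest of the 6. The means were 3.95 ± 0.929, 31.3 ± 11.1 and 46.0 ± 5.86 FPKM (SD, n = 3), which are 7.92-fold and 11.7-fold above SFOG for the SFSC and B6SC groups. On the scale used for all fold changes below, log2(FPKM + 1), the differences were 2.66 and 3.26, each with a standard error of 0.26. This scale understates the change of weakly expressed genes. Without the pair of tumors high in muscle genes the differences were 2.58 and 3.33, close to those over all tumors.

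Serpina3f is a close relative of Serpina3g in the same gene cluster and was less abundant in every tumor. It was found at 0.663, 0.498 and 0.434 FPKM in the SFOG tumors, at 1.98, 7.50 and 5.47 in SFSC, and at 10.8, 10.4 and 18.3 in B6SC. The 3 groups did not overlap in any pair, and SFSC replicate 1 was again the lowest adapted tumor. Serpina3f passed the filter on low values (1 FPKM in 3 tumors) only through the adapted tumors in which it was high, so a test after that filter is no independent support for its difference from SFOG, and values without the filter are given first. Without it, the log2 fold change was 1.84 in SFSC (SE 0.36, adjusted p = 0.0405, limma with Benjamini-Hochberg adjustment) and 3.17 in B6SC (SE 0.36, adjusted p = 0.00766, limma). Among the 10263 genes that passed the filter, adjusted p was 0.0208 and 0.00293 (limma), which makes Serpina3f a differentially expressed gene (DEG, adjusted p under 0.05 and absolute log2 fold change above 1) in both with or without the filter. The comparisons share the SFOG tumors. With the filter, the call in SFSC was lost when SFOG replicate 1, 2 or 3 or SFSC replicate 2 or 3 was left out, with adjusted p from 0.0524 to 0.0757 (limma), and without the pair of tumors high in muscle genes (log2 fold change 1.72, adjusted p = 0.0663, limma), whereas the call in B6SC held in each of these. The sources used here do not state how reads shared by the similar Serpina3 genes were assigned, so the split between Serpina3g and Serpina3f is uncertain.

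The ratio of Serpina3g to Serpina3f, looked at after the values of both were seen, was 7.44, 7.68 and 7.10 in the SFOG tumors and 9.72, 5.48 and 6.10 in the SFSC tumors. It was 3.81, 4.25 and 2.87 in the B6SC tumors, below every other tumor. The ratio rests on the uncertain split of reads between both genes.

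Serpina3n encodes a secreted inhibitor that is an acute phase protein of the liver and of reactive astrocytes and also inhibits granzyme B. Its pattern was not that of Serpina3g. It stood at 3.96, 7.20 and 6.17 FPKM in SFOG, at 9.40, 5.60 and 68.5 in SFSC, and at 44.4, 3.41 and 10.2 in B6SC. The 2 high tumors were the pair with high muscle transcripts, and the other 4 adapted tumors lay between 3.41 and 10.2 FPKM. The log2 fold changes were 1.34 (SE 0.98, adjusted p = 0.410, limma) in SFSC and 0.98 (SE 0.98, adjusted p = 0.589, limma) in B6SC. Without that pair they were 0.32 and 0.08. The part of muscle tissue in the 2 high values was not tested.

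Serpina3i was under 1 FPKM in every tumor. It was listed at 0.107, 0.319 and 0.0203 FPKM in SFOG, at 0.198, 0.253 and 0.223 in SFSC, and at 0.582, 0.641 and 0.620 in B6SC. The B6SC tumors were above all others, with p = 0.1 against each other group by an exact two-sided permutation test, the smallest p that 3 tumors against 3 can give. SFSC and SFOG overlapped (exact permutation p = 0.4).

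Summed over the 10 Serpina3 genes in the table, of 11 listed, the level was 9.89 to 12.4 FPKM in SFOG, 31.0 to 110 in SFSC and 58.7 to 98.3 in B6SC. The sum includes Serpina3g, which was chosen for its rise in adapted tumors. Its difference from SFOG is therefore partly set by that choice and is no separate result for the family. Serpina3g made up 30.8% to 49.8% of this sum in SFOG, 30.3% to 75.2% in SFSC and 42.0% to 75.3% in B6SC. The shares of the adapted groups overlapped (exact permutation p = 0.6). It was lowest in each adapted group in the tumor with high Serpina3n. Of the other Serpina3 genes, 3 were listed at 0 in every tumor, and Serpina3c and Serpina3m exceeded 1 FPKM only in SFSC replicate 3, at 1.22 and 1.53 FPKM. These last 2 genes were named after their values were seen.

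**Figure D2:**
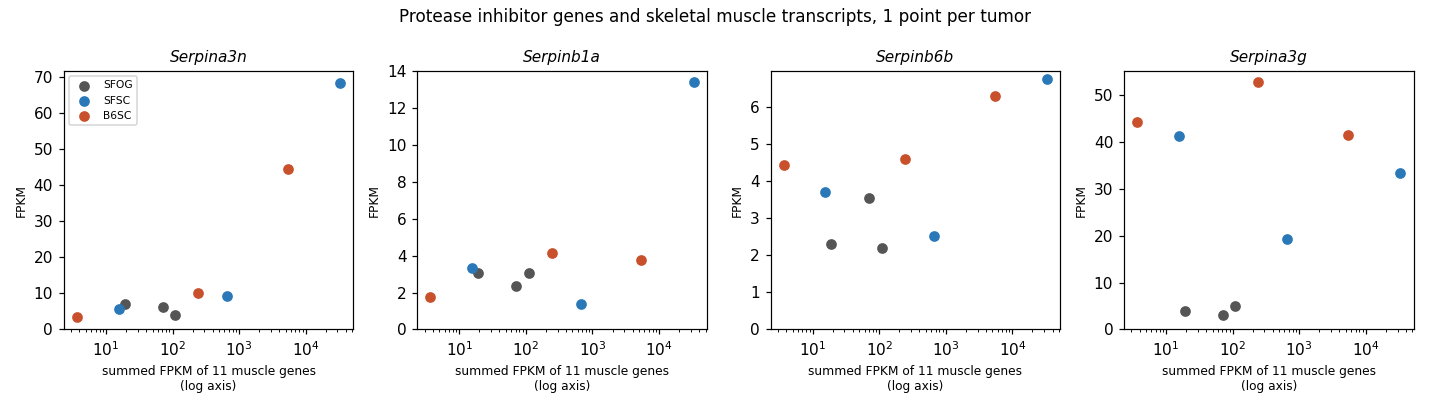
FPKM of Serpina3n, Serpinb1a, Serpinb6b and Serpina3g (vertical axes, linear) against the summed FPKM of 11 skeletal muscle genes (horizontal axes, log scale), with 1 point per tumor coloured by group. The tumors at 33000 and 5401 summed muscle FPKM hold the 2 highest Serpina3n and Serpinb6b values; no SFOG tumor lies in that range, and Serpina3g is at 33.4 and 41.3 FPKM in those tumors and at 19.3 to 52.6 FPKM in the other adapted tumors.

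Among the intracellular Serpinb genes, Serpinb9 was at 4.86, 4.89 and 4.51 FPKM in SFOG, at 5.55, 7.25 and 10.1 in SFSC, and at 9.18, 8.82 and 9.10 in B6SC. All adapted tumors were above all SFOG tumors, by a narrow margin in SFSC replicate 1. The group means were 4.75 ± 0.211, 7.64 ± 2.31 and 9.03 ± 0.187 FPKM (SD, n = 3). In B6SC the log2 fold change was 0.80 (95% confidence interval 0.41 to 1.20, adjusted p = 0.0303, limma), below the fold threshold for a DEG. Leaving out 1 tumor at a time gave 0.77 to 0.82, with adjusted p from 0.00633 to 0.109 (limma). In SFSC it was 0.55 (0.16 to 0.95, adjusted p = 0.0856, limma). Without the pair of tumors high in muscle genes the log2 fold changes were 0.79 in B6SC and 0.35 in SFSC.

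Granzyme B, the target of Serpinb9, moved by more. Gzmb was at 7.01, 3.22 and 11.2 FPKM in SFOG, at 8.89, 9.71 and 13.2 in SFSC, and at 44.2, 28.7 and 46.8 in B6SC. It was a DEG in B6SC (log2 fold change 2.43, adjusted p = 0.00700, limma), and the value in SFSC was 0.62 (adjusted p = 0.305, limma). The ratio of Gzmb to Serpinb9 was 1.44, 0.660 and 2.49 in SFOG, 1.60, 1.34 and 1.31 in SFSC, and 4.82, 3.26 and 5.15 in B6SC. The B6SC ratios were above all others (exact permutation p = 0.1 against each group, the smallest possible), and those of the other groups overlapped (exact permutation p = 0.9). The test of Gzmb between the adapted groups did not pass (log2 difference 1.81, adjusted p = 0.322, limma).

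**Figure D3:**
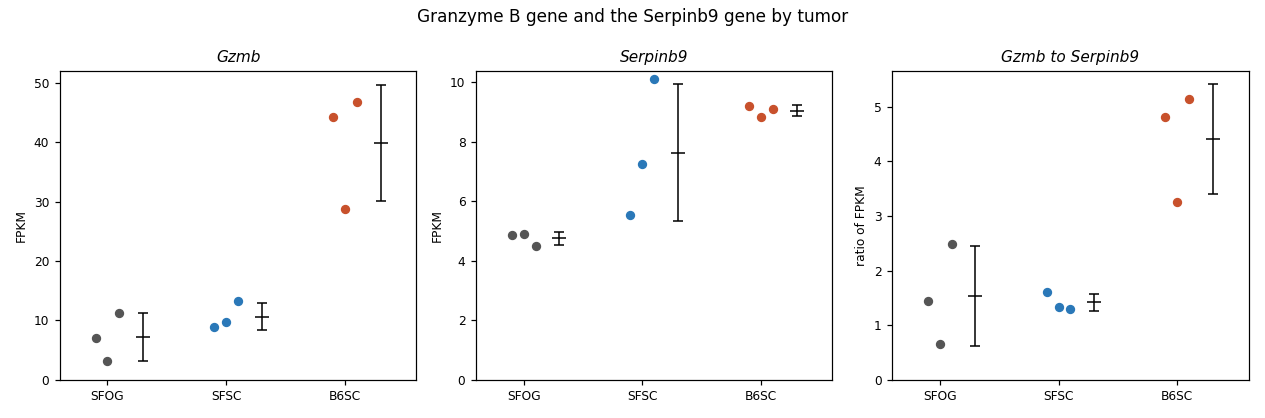
FPKM of Gzmb (left), FPKM of Serpinb9 (middle) and their ratio (right) in each tumor, with the mean and SD of each group (n = 3) beside the points. Gzmb and the ratio are highest in the 3 B6SC tumors, where the ratio lies between 3.26 and 5.15, while Serpinb9 is at 8.82 to 9.18 FPKM there and reaches 10.1 in 1 SFSC tumor.

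Serpinb6a went the other way. It was at 234, 360 and 312 FPKM in SFOG, at 210, 175 and 226 in SFSC, and at 229, 198 and 207 in B6SC. All 6 adapted tumors were below the 3 SFOG tumors, the nearest values being 229 and 234. The log2 differences of -0.55 (95% confidence interval -0.93 to -0.17, adjusted p = 0.0803, limma) and -0.49 (-0.87 to -0.11, adjusted p = 0.115, limma) did not pass the test. Summed epithelial markers were also lower in every adapted tumor, a sum carried by the keratin genes Krt8 and Krt18 (means of 510 and 315 FPKM in SFOG). In B6SC 3 of the 6 markers were above SFOG, with a list median of -0.07, and in SFSC none was, with a median of -0.39. The part of these markers in the lower Serpinb6a values was not tested.

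Serpinb6b, a paralog of Serpinb6a reported to bind granzyme A, was at 2.19, 2.31 and 3.54 FPKM in SFOG, at 2.51, 3.72 and 6.75 in SFSC, and at 6.30, 4.44 and 4.60 in B6SC. The B6SC tumors lay above the SFOG tumors, but the log2 fold change of 0.74 did not pass (adjusted p = 0.156, limma), nor did 0.47 in SFSC (adjusted p = 0.320, limma). The highest values in both adapted groups belonged to the tumors with high muscle transcripts. Without that pair the log2 fold changes were 0.60 in B6SC and 0.16 in SFSC. The ratio of Serpinb6a to Serpinb6b ranged from 88.0 to 156 in SFOG, 33.5 to 83.9 in SFSC and 36.4 to 45.0 in B6SC. Gzma rose in B6SC, from 1.92 ± 0.829 to 8.05 ± 0.607 FPKM (SD, n = 3, log2 fold change 1.66, adjusted p = 0.0160, limma). That call was lost without SFOG replicate 2, SFOG replicate 3 or B6SC replicate 3 (adjusted p 0.0525, 0.0661 and 0.0711, limma). The ratio of Gzma to Serpinb6b in B6SC, 1.17 to 1.87, overlapped that in SFOG, 0.390 to 1.31 (exact permutation p = 0.2), and lay above that in SFSC, 1.03 to 1.09 (exact permutation p = 0.1, the smallest possible).

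Serpinb1a inhibits neutrophil elastase, cathepsin G and proteinase 3 inside cells. It was at 3.03, 3.07 and 2.36 FPKM in SFOG, at 1.36, 3.32 and 13.4 in SFSC, and at 3.78, 1.74 and 4.12 in B6SC. Only SFSC replicate 3 stood apart, and the log2 fold changes were 0.47 (adjusted p = 0.627, limma) and 0.09 (adjusted p = 0.942, limma). Without the pair of tumors high in muscle genes both turned below 0, to -0.25 and -0.02.

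Slpi was at 1.97, 1.57 and 2.59 FPKM in SFOG, at 3.66, 1.03 and 6.39 in SFSC, and at 2.80, 3.14 and 6.15 in B6SC. The B6SC tumors were above all SFOG tumors, whereas SFSC held both the lowest and the highest Slpi of all 9 tumors. Neither log2 fold change passed, at 0.68 in B6SC (adjusted p = 0.385, limma) and 0.45 in SFSC (adjusted p = 0.540, limma). Without the pair of tumors high in muscle genes they were 0.85 in B6SC and 0.03 in SFSC. The neutrophil proteases that Slpi and Serpinb1a block were barely detected. Elane and Prtn3 stayed under 1 FPKM in every tumor, with Elane listed at 0 in 3 tumors, and Ctsg reached at most 1.70 FPKM, in SFOG replicate 1. Summed neutrophil markers (8 genes) were 25.6 to 34.1 FPKM in SFOG, 9.16 to 27.4 in SFSC and 27.1 to 53.7 in B6SC.

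Counted together and leaving Serpina3g aside, 1 of the 7 members tested was a higher DEG in each comparison with SFOG, Serpina3f both times. Among all genes tested, 2.36% were higher DEGs and 0.857% lower DEGs in SFSC, and 2.42% and 0.672% in B6SC. By position alone, 2 of 7 members in SFSC (Serpina3f and Serpinb9) and 4 of 7 in B6SC (also Serpinb6b and Slpi) were higher with no overlap, beside 13.6% and 14.9% of all genes tested. Serpinb6a was the 1 member lower with no overlap in each, beside 15.9% and 17.9% of all genes. Since Serpina3f entered these counts through a filter that it passed only in adapted tumors where it was high, nothing is read from them for the members as a set.

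**Figure D4:**
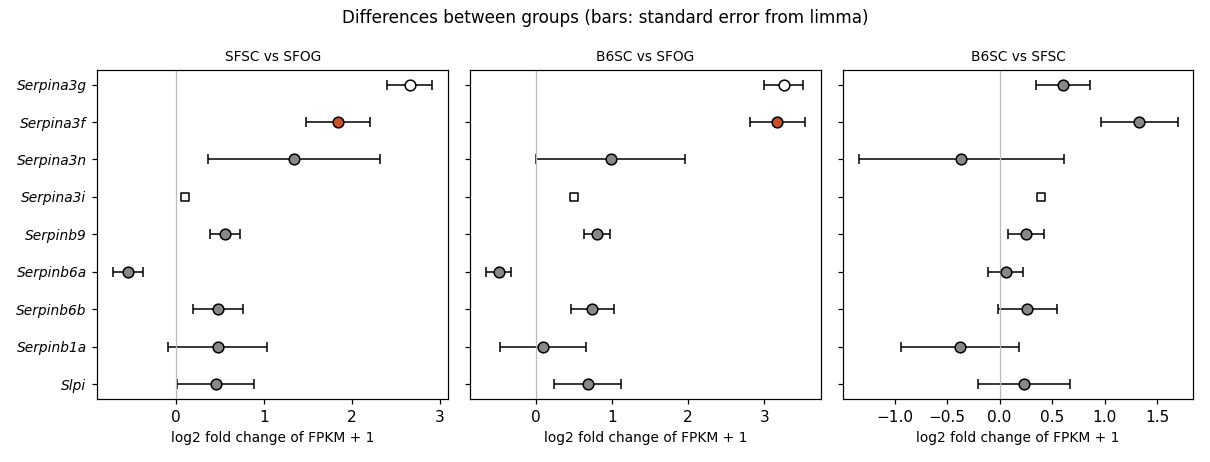
Log2 fold change of FPKM + 1 for each member (points, with the limma standard error as bars) in the comparisons named above each panel, which have different horizontal scales. Filled red points are DEGs and grey points are tested genes that are not; open circles mark Serpina3g where it was not tested and open squares Serpina3i, which was below the filter. Serpina3g and Serpina3f lie farthest to the right in both comparisons with SFOG, and Serpinb6a is the one member left of 0 in both.

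B6SC and SFSC tumors grew from the same cells in different hosts. None of the 8 members tested was a DEG between them, beside 0.0292% of all genes tested, or 3 genes. At an unadjusted p under 0.05 there were 2 members, Serpina3g and Serpina3f, and 643 genes. Serpina3g was 0.60 higher in B6SC on the log2 scale (95% confidence interval 0.02 to 1.19, adjusted p = 0.789, limma), and the groups were separated only by 41.3 against 41.1 FPKM. Serpina3f was 1.33 higher (0.51 to 2.16, adjusted p = 0.602, limma). These were the 2 of the 8 whose adapted groups did not overlap, beside 6.32% of all genes higher and 5.42% lower in the same way. The intervals of the other members tested were -0.14 to 0.64 for Serpinb9, -0.32 to 0.44 for Serpinb6a, -0.38 to 0.91 for Serpinb6b, -1.66 to 0.91 for Serpinb1a, -0.77 to 1.23 for Slpi and -2.59 to 1.86 for Serpina3n. A host difference of 1 or more on the log2 scale, in either direction, lay outside the interval for Serpinb9, Serpinb6a and Serpinb6b and inside it for Serpinb1a, Slpi and Serpina3n.

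The genes whose pattern over the 9 tumors was most like each member were found by Pearson r of log2(FPKM + 1) among 8121 genes with a mean of at least 5 FPKM. The r values are a description, since the tumors share their groups. Among the 5 genes most like Serpina3g were H2-M3 (r = 0.993), Gbp5 (0.988), Cxcl9 (0.987) and Slamf8 (0.983). Gbp5 is an interferon-induced GTPase, Cxcl9 an interferon-gamma-induced chemokine and H2-M3 a non-classical MHC class I molecule. Within groups, with each tumor taken as its deviation from the group mean, r with Serpina3g was still 0.948 for Gbp5 and 0.898 for Cxcl9. Cxcl9 was at 38.6 FPKM in SFSC replicate 1, the tumor lowest in Serpina3g among the adapted ones, and at 108 to 188 FPKM in the other 5.

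For Serpina3f the most alike genes were Gbp4 (r = 0.996, 0.961 within groups), Iigp1 (0.986 and 0.873) and Gbp6 (0.986 and 0.898), all interferon-induced GTPases. Gbp4 had group means of 2.12, 12.8 and 31.3 FPKM in SFOG, SFSC and B6SC, as graded over the groups as Serpina3f. Serpina3g and Serpina3f themselves had r = 0.959 (0.926 within groups), and Serpina3g and Serpina3n r = 0.37 (-0.08 within groups). The genes most like Serpina3n were Smtnl1 (r = 0.978), Eln (0.977) and Apobec2 (0.977), of which Smtnl1 and Apobec2 are muscle genes. Apobec2 was at 47.2 FPKM in SFSC replicate 3 and 25.5 in B6SC replicate 1, against at most 2.31 FPKM elsewhere.

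The remaining members had other partners. Serpinb9 was most like F830016B08Rik (r = 0.967), Apol6 (0.967) and Cxcl9 (0.950), and so shared a partner with Serpina3g. Serpinb6b was most like Serping1 (0.902), the C1 inhibitor, Il15ra (0.886), an interleukin-15 receptor chain, and Acsl1 (0.884). Serpinb1a was most like Atp5k (0.952), Chchd1 (0.950) and Cox5a (0.947), which encode mitochondrial proteins, and all 3 were highest in SFSC replicate 3. Serpinb6a followed Trappc6b (0.959), Mgat1 (0.959) and Scamp1 (0.958), genes of the secretory pathway. Slpi followed Cdk11b (0.953), Pde4b (0.929) and Napa (0.921), of which Cdk11b varied only from 33.5 to 43.2 FPKM.

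**Figure D5:**
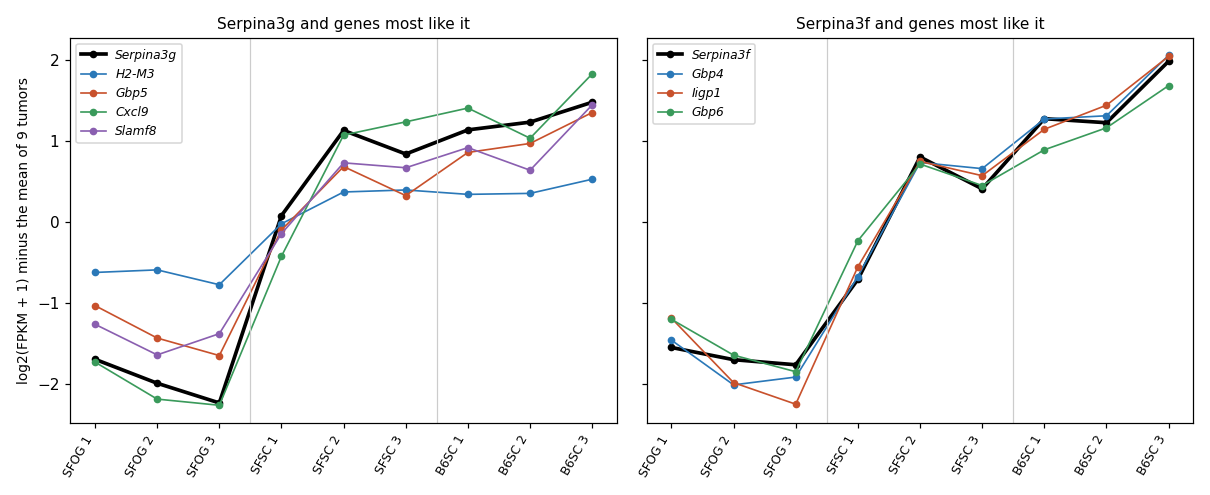
Serpina3g with 4 of the 5 genes most like it (left) and Serpina3f with the 3 most like it (right), as log2(FPKM + 1) minus the gene's mean over the 9 tumors, in each tumor along the horizontal axis; lines join values of 1 gene and the tumors of a group have no order. In both panels the SFOG tumors are lowest, SFSC replicate 1 lies between them and the other adapted tumors, and B6SC replicate 3 is highest.

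The wider interferon-gamma response list, which includes several of these partners, was higher in the same tumors. This list was chosen with earlier results of these data known. Of its 22 genes, 18 were higher DEGs in SFSC and 19 in B6SC, with median log2 fold changes of 1.51 and 1.99 against -0.03 over all genes tested in each. Cxcl9 had the largest change, 2.69 (adjusted p = 0.00933, limma) and 3.49 (adjusted p = 0.00305, limma). It was followed by Iigp1 (2.06 and 3.35), Gbp4 (2.04 and 3.34) and Gbp6 (1.88 and 2.81). The count in SFSC fell to 7 without SFOG replicate 3, to 10 without SFSC replicate 2 or without SFSC replicate 3, and to 8 without the pair of tumors high in muscle genes, where fewer tumors entered the test. In B6SC it stayed between 15 and 19 when 1 tumor was left out. With the replicate number as a block it was 12 in SFSC and 18 in B6SC. Without the filter on low values it was 17 in SFSC and 18 in B6SC.

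Target lists of other inflammatory pathways are given beside the shares of higher DEGs among all genes, 2.36% and 2.42%. Of 17 NF-kappaB target genes tested, 1 was a DEG, the chemokine gene Ccl5, which was 1.69 higher on the log2 scale in SFSC (adjusted p = 0.00746, limma) and 1.67 higher in B6SC (adjusted p = 0.00645, limma), and the medians of the list were 0.14 in both comparisons. Of 10 tested genes of the STAT3 and acute phase response, to which Serpina3n is often counted, none was a DEG in either comparison, with medians of 0.45 in SFSC and -0.17 in B6SC.

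Inhibitors related to the 9 members were also counted. Of 5 tested serpins of the remaining clades (23 listed, 17 under 1 FPKM in every tumor), Serpinf1, the secreted pigment epithelium-derived factor, was a DEG in both comparisons, at 174 ± 65.3, 369 ± 119 and 425 ± 19.9 FPKM (SD, n = 3). Its log2 fold changes were 1.09 (adjusted p = 0.0442, limma) and 1.34 (adjusted p = 0.0249, limma). With the filter, the call in SFSC was lost whenever any 1 of the 9 tumors was left out except SFOG replicate 2, with adjusted p between 0.0525 and 0.138 (limma), and without the pair of tumors high in muscle genes. With the replicate number as a block neither Serpinf1 call passed (adjusted p = 0.0839 and 0.0592, limma), and the call in B6SC was also lost without SFOG replicate 1 or 3 or any B6SC tumor (adjusted p 0.0602 to 0.0948, limma). None was a DEG in any comparison among 7 Serpinb genes tested (4 of them members), 6 genes of WAP domain and other small secreted inhibitors and related proteins (Slpi, Wfdc2, Pi16, Spink2, Spint1 and Spint2, 1 of them a member) and 4 cystatins and stefins. Among the Serpinb genes, Serpinb8 had an adjusted p of 0.0248 (limma) in SFSC with a log2 fold change of 0.90, under the fold threshold. It was named after its values were seen.

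On the side of the proteases, 2 of 8 granzyme genes tested were DEGs, Gzma and Gzmb in B6SC. The granzymes Gzmc to Gzmg, which lie beside Gzmb in the mouse, were measured at group means of 5.91 to 36.5 FPKM with no DEG, and the list median was -0.59 in SFSC and 0.19 in B6SC. None of 14 cathepsin and legumain genes was a DEG. The cathepsins that Serpina3g can inhibit were abundant in all groups. Ctsl was at 667 ± 93.6, 523 ± 114 and 575 ± 62.2 FPKM and Ctsb at 354 ± 56.5, 303 ± 75.2 and 327 ± 27.6 FPKM (SD, n = 3). Ctss, the cathepsin of antigen-presenting cells, was at 359 ± 60.3, 722 ± 101 and 699 ± 235 FPKM (SD, n = 3) and did not pass (log2 fold changes 1.01 and 0.91, adjusted p = 0.0521 and 0.0772, limma). Ctsc, which activates granzymes and neutrophil proteases, was at 135 ± 46.4, 188 ± 48.1 and 230 ± 72.6 FPKM (SD, n = 3), 0.51 higher in SFSC and 0.78 higher in B6SC on the log2 scale (adjusted p = 0.369 and 0.199, limma).

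Of 7 mast cell protease genes tested, Tpsab1, which encodes a tryptase, was lower in B6SC (log2 fold change -1.93, adjusted p = 0.0109, limma) and was also 1 of the 3 DEGs between the adapted groups, at 12.0 ± 6.13 FPKM in SFSC and 0.633 ± 0.201 FPKM in B6SC (SD, n = 3, log2 difference -2.89, adjusted p = 0.0364, limma). The first call was lost without SFOG replicate 3 or B6SC replicate 3 (adjusted p = 0.0517 and 0.0553, limma). The second was lost without any SFOG tumor, without SFSC replicate 2 or without any B6SC tumor (adjusted p 0.0830 to 0.303, limma). Between the adapted groups the median of the 7 genes was -1.43, with 2 above 0. Against SFOG it was 0.96 in SFSC, with 5 above 0, and -0.38 in B6SC, with 0 above 0. The summed FPKM of the list was 110.6 in SFSC replicate 3, which was high in muscle genes, and 26.55 and 47.46 in SFSC replicates 1 and 2.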

How the data were processed

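RNA of 9 whole tumors was measured, and groups came from the labels of the samples. The labels' organism field names human, but titles, the mm10 build and the gene symbols are mouse, and the data were treated as mouse. After FastQC and alignment with HISAT2, the authors used Cuffnorm to make the deposited FPKM, and tested genes with Cuffdiff. The annotation, strand setting, Cuffnorm scaling and filter are not given in the sources used here. Counts were not used here, so depth is unknown and the number of tumors limits precision. At most 0.0487% of genes tested had equal values in any pair of tumors.

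Genes reaching 1 FPKM in 3 or more tumors (10263) were tested as log2(FPKM + 1) with limma 3.58.1 in R 4.3.3 (lmFit, eBayes with trend, one model of 3 groups, Benjamini-Hochberg adjustment). Single values had exact two-sided permutation tests. The fit was tested on simulated data. Ratios and sums used Python 3.11.15. The members and lists were chosen with earlier results of these data known. Named genes were all members, their target proteases, up to 4 DEGs of largest change per list, and the 5 genes most like Serpina3g or 3 most like each other member. One gene that the rule names is not reported here. Alternatives were other scalings, pseudocounts, filters, thresholds and fits, a replicate block and tumors left out. A mouse genome was not used here, so no coordinates or sequences are given.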

Additional observations from a re-analysis of the deposited data

How the results depend on the processing

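Of the member values recomputed under the alternatives, 428 were counted as unchanged, 6 lost a call (all Serpina3f in SFSC) and 13 changed sign, none of them a DEG. Unchanged meant the same direction and side of the threshold. For Serpina3g against SFOG, which was not tested, it meant the same direction and a shift under the within-group SD. Without the pair of tumors high in muscle genes Serpinb1a turned to -0.253 in SFSC, -0.0232 in B6SC and 0.230 between the adapted groups, the higher members called in SFSC went from 1 to 0, and the interferon-gamma genes called there from 18 to 8 (fewer tumors). Leaving out 1 tumor at a time gave Serpinb1a -0.253 to 1.05 in SFSC, -0.0725 to 0.378 in B6SC and -0.957 to 0.347 between the adapted groups. Between the adapted groups it gave Serpinb6a -0.0465 to 0.136, Slpi -0.282 to 0.651, Serpina3n -1.26 to 0.660 and Ccl5 -0.227 to 0.294 (-0.02 with all tumors, 0.402 without the muscle-high pair). Higher members called ranged from 0 to 1 in SFSC. Genes called ranged from 104 to 276 higher and 37 to 87 lower in SFSC, 126 to 276 and 29 to 76 in B6SC, and 0 to 1 and 0 to 6 between the adapted groups, and interferon-gamma genes from 7 to 18 in SFSC. With a mean of at least 5 FPKM (fewer genes tested), 160 genes were higher in SFSC, 161 higher and 38 lower in B6SC, and 0 lower between the adapted groups. With adjusted p alone the counts were 448 higher and 402 lower in SFSC and 409 and 284 in B6SC, where 2 members were higher. The 3 genes lower between the adapted groups became 1 without a filter on low values and 0 with only the groups compared; the cause was not tested. For the other genes named, alternatives were chosen after seeing the data.

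With the replicate block the Serpina3f adjusted p was 0.0430 in SFSC and 0.0131 in B6SC (limma), and 0 genes were lower between the adapted groups. Same-numbered tumors are different animals, and their correlations of deviations from group means ranged from -0.39 to 0.61. With so few tumors per group, this range cannot decide whether the numbers pair tumors across groups. The block ended the Serpinf1 calls and the Tpsab1 call between the adapted groups, lowered the interferon-gamma genes called from 18 to 12 in SFSC and from 19 to 18 in B6SC, and ended no call of a member, Gzma, Gzmb or Ccl5, or of Tpsab1 in B6SC. The Serpinf1 call in SFSC was also lost without a filter (adjusted p = 0.0744, limma) and with only the groups compared (0.0974), and the Tpsab1 call between the adapted groups without a filter, with a mean of at least 5 FPKM, with only the groups compared and without the muscle-high pair (0.0651 to 0.341).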
